A study of Mus musculus with 15 samples.

Results

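Interferon sensors and effectors are described here by 9 genes, Irf7, Irf9, Stat2, Ifih1, Ddx58, Zbp1, Isg15, Ifit1 and Ifit3, taken by symbol from the 36118 genes of a table of normalised counts. The table holds 15 RNA sequencing libraries of whole testes from C57/BL6 mice, 3 in each of the groups Control, MTX, HMS-I1, AA and TSA. The labels do not spell out the treatment names and give no dose, age or duration, and no allele or agent beyond the group name. The 3 HMS-I1 libraries are grouped by title, since their treatment entries differ (HMS-I1, HMS-I2, HMS-I3). Whether replicates came from separate mice is not labelled, and each p-value therefore reflects the spread among these libraries, part of which may be technical.

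Cells detect viral or misplaced nucleic acid with sensor proteins, which switch on the genes of type I interferons. Secreted interferon then binds its receptor on the same or neighbouring cells, and the kinases there activate a transcription factor complex, with STAT2 and IRF9 among its subunits, that binds the interferon-stimulated response element in the promoters of many target genes. In the testis, macrophages, Leydig cells and Sertoli cells are known to mount this response. Ifih1 (MDA5) and Ddx58 (RIG-I) encode sensors of double-stranded RNA in the cytoplasm, and Zbp1 encodes a sensor of left-handed double-stranded nucleic acid that can start necroptosis. Irf7, Irf9 and Stat2 encode transcription factors of the response. Isg15 encodes a ubiquitin-like protein that is attached to other proteins, and Ifit1 and Ifit3 encode related proteins, of which IFIT1 binds foreign RNA.

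The response element is visible in the promoters of most of these genes. RefSeq windows on the build GRCm38.p6, each of 300 bases from 250 before to 50 after a start, were found for 8 of the 9 genes. Zbp1 has no entry. The core of the response element, GAAA followed by any 2 bases and GAAA again, was searched on both strands. It occurred in the windows of 6 of these 8 genes, Isg15, Ifit1, Ifit3, Ifih1, Ddx58 and Stat2. Of all 32851 windows of this length, 3.44% held it. The motif TTCNNNGAA, the gamma-activated site of interferon gamma target genes, reads the same on both strands and occurred in 0 of the 8, against 8.30% of all windows. The 250 bases before the start are shown for the effectors, which hold 2 or 3 copies each, with every copy of this core, on either strand, in capitals, 5′ to 3′ on the strand of the gene:
Isg15, chr4:156200819-156201068 (- strand): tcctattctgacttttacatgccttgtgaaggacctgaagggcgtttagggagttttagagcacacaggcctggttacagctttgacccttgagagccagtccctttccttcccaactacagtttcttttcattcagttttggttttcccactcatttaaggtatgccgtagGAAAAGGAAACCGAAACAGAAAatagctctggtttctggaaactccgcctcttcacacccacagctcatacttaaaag
Ifit1, chr19:34640639-34640888 (+ strand): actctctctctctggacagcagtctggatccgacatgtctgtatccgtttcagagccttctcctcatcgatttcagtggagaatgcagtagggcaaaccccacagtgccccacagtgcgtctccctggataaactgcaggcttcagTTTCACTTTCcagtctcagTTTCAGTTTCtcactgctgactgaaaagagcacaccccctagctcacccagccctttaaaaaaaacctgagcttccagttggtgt
Ifit3, chr19:34583279-34583528 (+ strand): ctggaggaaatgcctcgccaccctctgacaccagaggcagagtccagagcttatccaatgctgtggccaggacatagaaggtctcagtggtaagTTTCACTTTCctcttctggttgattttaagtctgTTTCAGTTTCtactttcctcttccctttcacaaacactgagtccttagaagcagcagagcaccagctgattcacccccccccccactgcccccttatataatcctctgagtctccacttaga
In Isg15 the 3 copies overlap and run from base -78 to -57 before the start. Ifit1 has copies at -104 to -95 and -85 to -76, and Ifit3 at -156 to -147 and -122 to -113. The sensors and Stat2 hold a single copy each, shown with the flanking bases so that its sequence can be set beside those of the effectors:
Ifih1, chr2:62646206-62646233 (- strand): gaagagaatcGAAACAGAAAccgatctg
Ddx58, chr4:40239804-40239833 (- strand): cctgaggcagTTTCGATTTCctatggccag
Stat2, chr10:128270266-128270295 (+ strand): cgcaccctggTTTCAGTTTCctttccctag
The copy lies at 33 to 42 after the start in Ifih1, at 3 to 12 after it in Ddx58, and at -222 to -213 in Stat2. These matches describe the letters of the windows, and no binding was measured.

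The libraries fell into unlike sets that cut across the groups. A first set of 6 (replicate 1 of every group, plus Control replicate 2) had a mean log2 value over 60 histone genes of 7.79 to 8.82, and the remaining 9 libraries, the second set, were at 2.95 to 3.86. Mitochondrially encoded genes contributed 1.08% to 1.40% of all values there, against 3.54% to 13.7% among the other 9. The commonest value among low genes, a guide to what 1 read is worth, lay at 1.98 to 2.62 normalised counts there but only at 0.453 to 0.917 in the second set, so the first set appears to be the shallower. On that guide, Zbp1 in HMS-I1 replicate 1 rested on about 1.97 reads, and Isg15 rested on 6.77 to 23.4 reads in the libraries of the first set. Markers of the labelled tissue were present, with a mean log2 value of 13.06 to 14.97 for 12 spermatid genes over the 15 libraries. In bulk tissue, fewer cells of a type and less RNA per cell cannot be told apart.

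Over all 15 libraries, the 9 genes were highest in 3 single libraries, 1 each of AA, TSA and MTX. AA replicate 3 was among the 3 highest of the 15 libraries for 9 of the 9 genes and held the highest value of 8. TSA replicate 2 was among the 3 highest for 8 genes and MTX replicate 3 for 6 (Irf7, Irf9, Zbp1, Isg15, Ifit1 and Ifit3). At the other end, TSA replicate 1 was among the 3 lowest for 7 genes and HMS-I1 replicate 1 for 5. Averaged over the 9 genes, the log2 value was 7.999 in AA replicate 3, 7.62 in TSA replicate 2 and 7.62 in MTX replicate 3. The first set lay at 5.68 to 6.67, with AA replicate 1 the highest. The other 6 libraries of the second set lay at 6.36 to 7.04, with AA replicate 2 the highest.

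**Figure D1:**
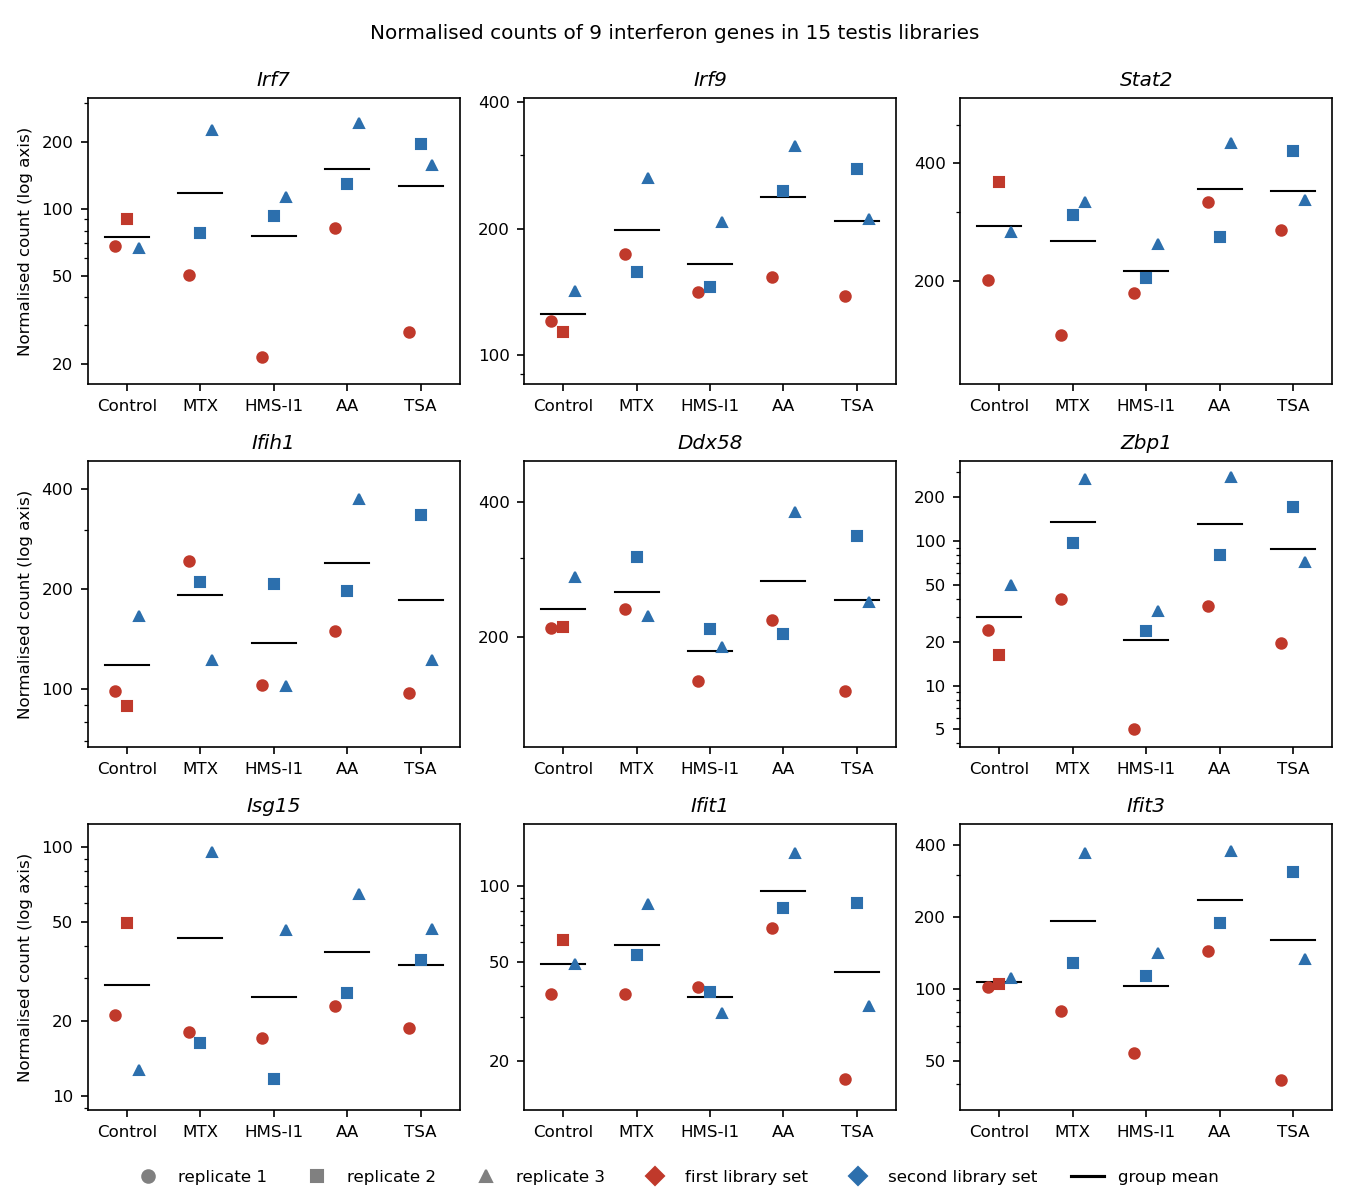
Normalised count (log axis) of each of the 9 genes in every library, by group, with the black line at the group mean. Marker shape gives the replicate and colour the library set. For Zbp1 the triangles of AA and MTX and the square of TSA are the highest points, at 275, 269 and 172. For Ifih1 the triangle of MTX, at 122, is the lowest point of MTX.

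Zbp1 (ENSMUSG00000027514) varied most. It stood at 24.1, 16.2 and 49.6 normalised counts in Control replicates 1, 2 and 3, at 39.7, 97.3 and 269 in MTX, at 4.98, 24.0 and 32.9 in HMS-I1, at 35.6, 80.5 and 275 in AA and at 19.5, 172 and 71.7 in TSA. The highest value was 55.2 times the lowest. In each treatment the replicate of the first set was the lowest, and every treated group overlapped the Control libraries. The log2 fold change against Control was 1.88 (SE 0.98) in MTX, 1.75 (SE 0.98) in AA, 1.19 (SE 0.98) in TSA and -0.70 (SE 0.98) in HMS-I1, and 0 of these passed the threshold of an adjusted p under 0.05 (limma, smallest adjusted p = 0.886). Leaving out 1 library at a time gave 1.18 to 2.54 in MTX, 0.97 to 2.43 in AA and 0.47 to 2.01 in TSA, the lowest without MTX replicate 3, AA replicate 3 and TSA replicate 2.

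The RNA sensors varied less, and in MTX their highest libraries were not that of Zbp1. Ifih1 (ENSMUSG00000026896) stood at 99.1, 89.3 and 166 in Control, 242, 210 and 122 in MTX, 103, 207 and 102 in HMS-I1, 150, 198 and 372 in AA and 97.7, 334 and 123 in TSA. MTX replicate 3, where Zbp1 was high, was the lowest MTX library for Ifih1, and MTX replicate 1 was the highest of the first set. Its log2 fold changes against Control were 0.69 (SE 0.51) in MTX, 0.19 in HMS-I1, 0.96 in AA and 0.48 in TSA, each with the same SE. Ddx58 (ENSMUSG00000040296) had the narrowest range, with a highest value 2.51 times its lowest. It stood at 209, 211 and 272 in Control, 231, 303 and 224 in MTX, 160, 209 and 191 in HMS-I1, 218, 204 and 380 in AA and 152, 337 and 240 in TSA. All 3 HMS-I1 libraries lay below all 3 Control libraries, the highest of HMS-I1 at 208.6 and the lowest of Control at 209.4. That lower placing held for 1 of the 9 genes, and 1.35% of the 17896 genes tested showed it. The log2 fold change of Ddx58 in HMS-I1 was -0.30 (SE 0.33, adjusted p = 1.00, limma), and those in MTX, AA and TSA were 0.13, 0.16 and 0.01.

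Of the transcription factors, Irf9 separated the groups most clearly. Irf9 (ENSMUSG00000002325), the DNA-binding subunit of the complex with STAT2, stood at 120, 114 and 142 in Control, 174, 157 and 264 in MTX, 141, 146 and 208 in HMS-I1, 153, 246 and 315 in AA and 138, 278 and 211 in TSA. Every AA and every MTX library lay above every Control library, while HMS-I1 and TSA overlapped Control in replicate 1 alone. The log2 fold changes were 0.87 in AA, 0.68 in TSA, 0.63 in MTX and 0.38 in HMS-I1, with an SE of 0.34 for each. The AA value had an unadjusted p of 0.0257 and an adjusted p of 1.00 (limma), so it did not pass.

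Irf7 (ENSMUSG00000025498), which amplifies the production of interferon alpha, stood at 68.5, 90.6 and 66.4 in Control, 50.2, 78.3 and 226 in MTX, 21.6, 92.8 and 113 in HMS-I1, 82.5, 130 and 244 in AA and 27.8, 197 and 158 in TSA. Its replicate 1 was the lowest library of each treatment and the Control libraries lay close together. The log2 fold change was 0.37 in MTX, -0.28 in HMS-I1, 0.88 in AA and 0.36 in TSA (SE 0.80 for each). Stat2 (ENSMUSG00000040033) stood at 201, 358 and 267 in Control, 145, 294 and 318 in MTX, 186, 203 and 247 in HMS-I1, 318, 259 and 450 in AA and 269, 428 and 322 in TSA. Its Control libraries overlapped every treated group, and its log2 fold changes of -0.34 to 0.32 came with an SE of 0.35.

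Among the effectors, Ifit3 (ENSMUSG00000074896) had the tightest Control group, at 102, 105 and 112 normalised counts. It stood at 81.3, 129 and 369 in MTX, 54.0, 113 and 141 in HMS-I1, 145, 189 and 376 in AA and 41.5, 307 and 133 in TSA. All AA libraries lay above Control, whereas the other treatments had their replicate 1 below it and replicates 2 and 3 above it. The log2 fold change was 1.02 in AA and 0.56 in MTX (SE 0.69). Ifit3 shares 61.8% of the 31-base words of its transcripts with its near copy Ifit3b, so the counting could have split reads between them. Their summed values were 136 to 173 in Control and 199 to 479 in AA, again without overlap, while HMS-I1 replicate 2, at 146, fell inside the Control range.

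Ifit1 (ENSMUSG00000034459) stood at 37.0, 61.1 and 48.8 in Control, 37.3, 53.3 and 84.8 in MTX, 39.6, 37.8 and 31.2 in HMS-I1, 68.2, 82.0 and 136 in AA and 17.0, 85.9 and 33.2 in TSA. The AA libraries were again all above Control, and TSA held both a low and a high library. The log2 fold change was 0.92 (SE 0.52) in AA, 0.20 in MTX, -0.40 in HMS-I1 and -0.38 in TSA. With its related genes Ifit1bl1 and Ifit1bl2, which share 9.16% or less of its words each, the sums were 57.4 to 81.6 in Control and 77.3 to 166 in AA, which overlapped. Isg15 (ENSMUSG00000035692) stood at 21.2, 49.8 and 12.8 in Control, 18.1, 16.5 and 95.5 in MTX, 17.1, 11.7 and 46.6 in HMS-I1, 23.1, 26.1 and 65.1 in AA and 18.8, 35.2 and 47.2 in TSA. Control replicate 2 was the third highest library of all 15 for Isg15, and replicate 3 was the highest of each treatment. No treated group stood apart from Control, with log2 fold changes of -0.17 to 0.49 (SE 0.76). Isg15 shares 13.1% of its 31-base words with other genes, 10.2% with AC151275.1, and no sum with these genes was made.

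**Figure D2:**
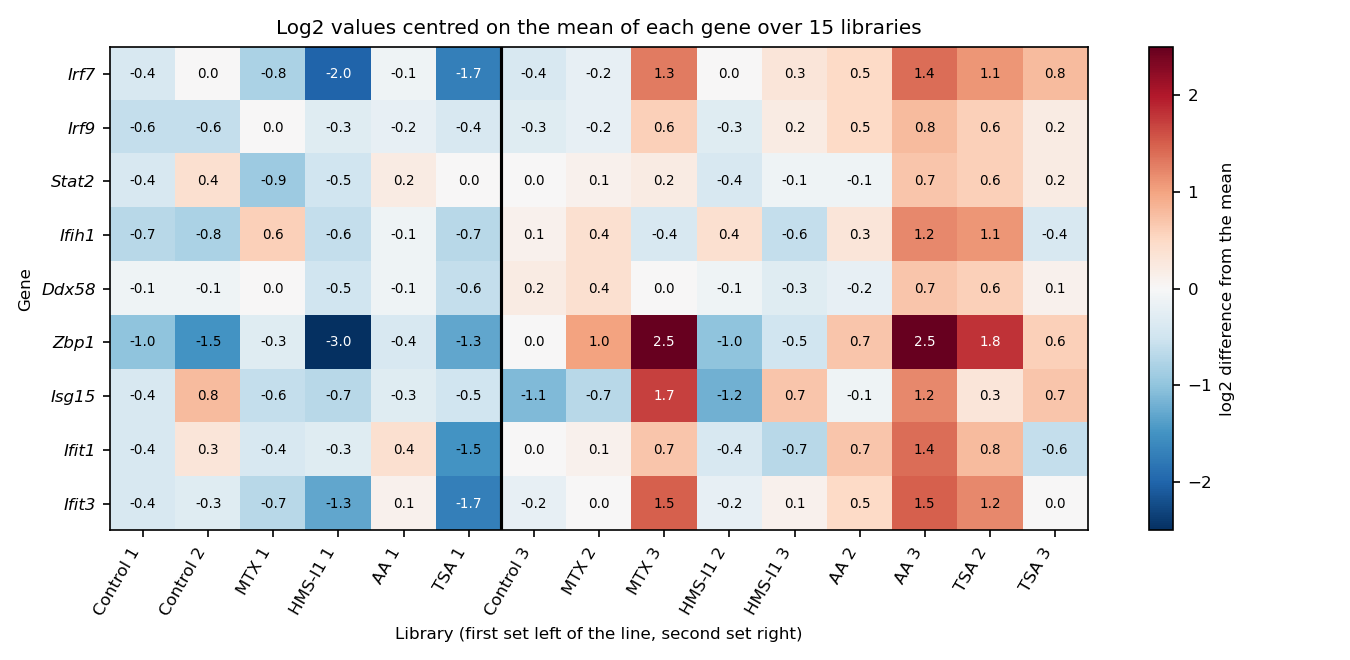
Log2(normalised count + 1) of each gene minus its mean over the 15 libraries, with libraries in columns and the library sets split by the line. AA replicate 3, TSA replicate 2 and MTX replicate 3 are red for most genes, and the Ifih1 and Ddx58 cells of MTX replicate 3 are pale.

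Set against Control, the genes were higher on balance in AA, MTX and TSA, but no single gene passed. Control holds 2 libraries of the first set and each treatment 1, so these comparisons mix set and treatment. With the library set as a term, the median of the 9 was 0.63 in AA, 0.17 in MTX, 0.19 in TSA and -0.47 in HMS-I1. In AA 9 of 9 genes were higher, with a median log2 fold change of 0.88 and a range of 0.16 to 1.75, where 47.3% of all genes tested were higher with a median of -0.02. Limma called 0% of the 17896 genes in AA against Control and 0 of the 9, and 143 genes, 1 of the 9 among them, had an unadjusted p under 0.05. Irf9, Ifit1 and Ifit3 had every AA library above every Control library, 3 of 9, and 2.81% of all genes tested did. Lower in every AA library were 0 of the 9 and 2.23% of all genes. Without AA replicate 3 the median was 0.59. The AA library of the first set was 0.39 (median of the 9) above the Controls of that set, with 8 of 9 higher. The mean of the other AA libraries was 1.10 above Control replicate 3, with 9 of 9 higher. Taken singly, AA replicate 2 had 7 of 9 higher (median 0.74) and AA replicate 3 had 9 of 9 (median 1.465).

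In MTX 8 of 9 genes were higher, with a median of 0.37, and Stat2 was at -0.17. Limma called 0% of all genes and 0 of the 9, with 98 genes and 0 of the 9 at an unadjusted p under 0.05. Irf9 alone, 1 of 9, lay above Control in all libraries, against 1.32% of all genes tested, and 0 lay below it in all, against 1.15%. MTX replicate 3 carried the median, which was -0.05 without that library. Red cell genes were also highest there, with summed normalised counts of 8968 against 1479 to 3470 in Control, and 5 of 5 tested were higher in MTX (median 0.69, 0 passed). In AA replicate 3 and TSA replicate 2 these sums were 2276 and 2419, within the Control range, and the part of red cells in the MTX values was not tested. On the log2 scale MTX replicate 3 was 2.81 above Control replicate 3 for Isg15, 2.41 for Zbp1, 1.75 for Irf7 and 1.72 for Ifit3. For Isg15, Control replicate 3 was the lowest Control library, at 12.8 normalised counts. From the same Control library, MTX replicate 3 was at -0.44 for Ifih1 and -0.28 for Ddx58. MTX replicate 1 went the other way, with Ifih1 at 1.36, Irf7 at -0.64 and Isg15 at -0.81 from the Controls of its set. Within the first set 4 of 9 genes were higher (median -0.34). Within the second, on the mean of MTX replicates 2 and 3, 7 of 9 were (median 0.52).

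In TSA 8 of 9 genes were higher, with a median of 0.36, and Ifit1 was at -0.38. Limma called 0% of all genes and 0 of the 9, with 1027 genes and 0 of the 9 at an unadjusted p under 0.05. No gene of the 9 had every TSA library above Control, where 2.36% of all genes tested did, and 0 had every library below it, where 2.18% did. The sets ran in opposite directions. TSA replicate 1 had a median of -0.47 from the Controls of the first set with 3 of 9 genes higher. The mean of replicates 2 and 3 had a median of 0.77 from Control replicate 3 with 9 of 9 higher. Taken singly, TSA replicate 2 had 9 of 9 higher (median 1.00) and TSA replicate 3 had 6 of 9 (median 0.27). The median of TSA against Control was 0.83 without TSA replicate 1, -0.06 without TSA replicate 2 and 0.10 without TSA replicate 3. Without TSA replicate 1 limma called 992 genes in TSA against Control, and 0 of the 9.

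In HMS-I1 7 of 9 genes were lower than in Control, with a median of -0.28. Irf9 at 0.38 and Ifih1 at 0.19 were the higher members. Limma called 0% of all genes and 0 of the 9, with 73 genes and 0 of the 9 at an unadjusted p under 0.05. Without HMS-I1 replicate 1 the median was 0.06, and without Control replicate 2 it was -0.14. Against the Controls of its set, HMS-I1 replicate 1 had Irf7 at -1.82, Zbp1 at -1.80 and Ifit3 at -0.93. In that library Irf7 rested on about 8.54 reads and Zbp1 on about 1.97. Within the first set 2 of 9 genes were higher (median -0.52), and within the second 4 of 9 (median -0.19). Ddx58 alone, 1 of 9, lay below Control in all HMS-I1 libraries, against 1.35% of all genes tested. Above it in all were 0 of the 9, against 1.35%.

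**Figure D3:**
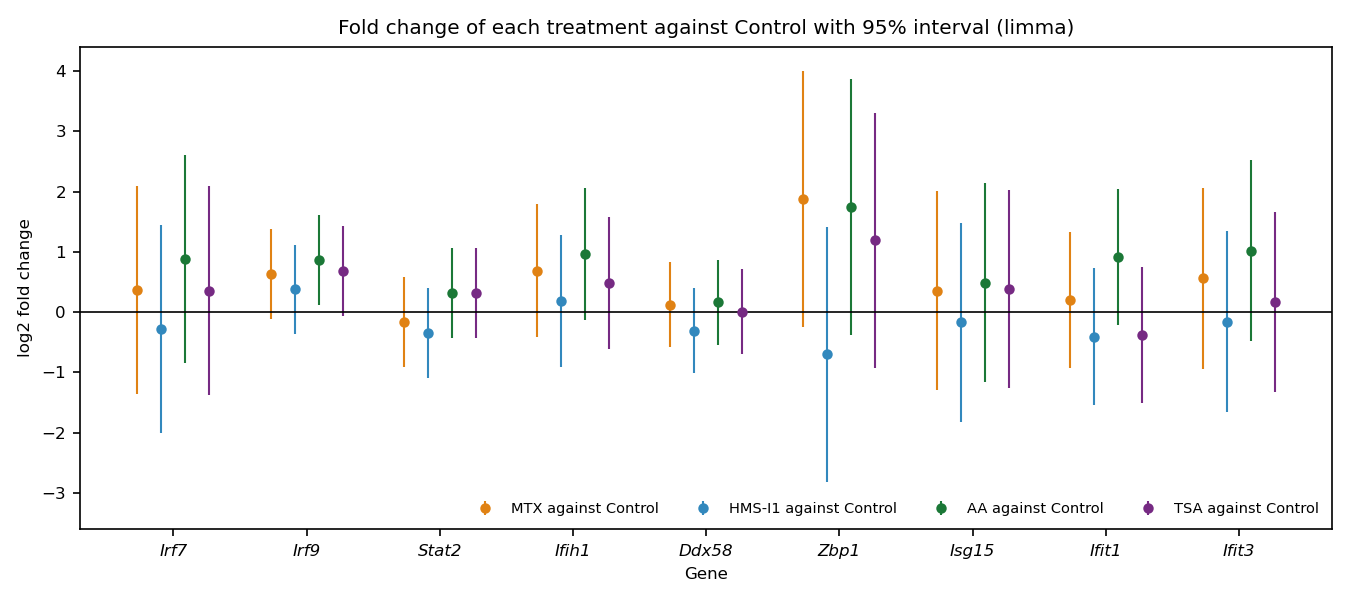
Log2 fold change of each gene in each treatment against Control (points) with its 95% interval from limma (bars). The bars cross 0 except for Irf9 in AA, whose interval of 0.12 to 1.61 is not adjusted for the number of genes.

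The order of the group means repeated in part across the genes. AA had the highest mean for 7 of the 9 and MTX for Zbp1 and Isg15, while HMS-I1 had the lowest mean for Stat2, Ddx58, Zbp1, Isg15, Ifit1 and Ifit3 and Control for Irf7, Irf9 and Ifih1. Of the 36 pairs of neighbouring groups in these orders, 35 overlapped in their libraries. The same count was not made over all genes, so it describes these orders alone. The exception was Ddx58, with Control above HMS-I1, a placing that 1.35% of all genes tested showed. Treatments were also compared with each other. All 9 genes were lower in HMS-I1 than in MTX (median -0.52), higher in AA (0.77) and in TSA (0.32) than in HMS-I1, and lower in TSA than in AA (-0.48). Of all genes tested, 48.4% were higher in HMS-I1 than in MTX and 48.4% in TSA than in AA. Against HMS-I1, 51.6% were higher in AA and 51.4% in TSA. Single libraries moved the medians of the 9. That of HMS-I1 against MTX was -0.10 without MTX replicate 3 and -0.32 without HMS-I1 replicate 1, and that of AA against HMS-I1 was 0.44 without AA replicate 3 and 1.21 without HMS-I1 replicate 3. TSA against HMS-I1 was at 0.07 without TSA replicate 2 and 0.81 without TSA replicate 1. TSA against AA turned to 0.05 without AA replicate 3 and to 0.15 without TSA replicate 1, and was at -1.02 without TSA replicate 2. Zbp1 differed by -2.58 (SE 0.98, unadjusted p = 0.0209, limma) between HMS-I1 and MTX, and Ifit1 by -1.30 (SE 0.52, unadjusted p = 0.0279, limma) between TSA and AA. Between AA and HMS-I1, Zbp1 differed by 2.45 (unadjusted p = 0.0268, limma) and Ifit1 by 1.32 (unadjusted p = 0.0255, limma). An unadjusted p under 0.05 was reached by 0.61% of all genes tested in HMS-I1 against MTX. The share was 4.14% in TSA against AA and 1.25% in AA against HMS-I1. Limma called 0% of all genes and 0 of the 9 in each of the 6 pairs and in the test of any difference among the 5 groups (adjusted p = 1.00 for the 9), where 230 genes and 0 of the 9 had an unadjusted p under 0.05. These comparisons share libraries, so their values are not independent.

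Most ligands of the pathway were at or near 0. Of 21 interferon genes, 12 were listed at 0 in all 15 libraries and 0 reached the mean of 10 needed for testing. Ifnb1, the first interferon made on infection, was above 0 in a single library at 0.651. Ifng, the interferon of lymphocytes, was the highest, with a mean of 5.29 and a maximum of 18.2.

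Receptors and signal transducers, among them Ifnar1 and Jak1, had 12 of 12 tested members higher in AA (median 0.47), 12 of 12 in TSA (0.51), 11 of 12 in MTX (0.27) and 9 of 12 in HMS-I1 (0.17), and 0 passed. Of all genes tested, 47.3% were higher in AA, 50.5% in TSA, 47.9% in MTX and 47.9% in HMS-I1. Control holds 2 libraries of the first set and each treatment 1, so counts of this list and those below mix set and treatment. Against Control replicate 3 alone, 6 of 12 were higher in each of MTX replicates 2 and 3 and HMS-I1 replicate 2. The count was 10 in HMS-I1 replicate 3 and 11 or 12 in AA and TSA replicates 2 and 3. Ifnlr1, a receptor chain for interferon lambda, was at 0.97 (SE 0.50) in HMS-I1. For the other sensors and adaptors the counts were 15 of 19 higher in AA (median 0.22), 13 in MTX (0.12), 12 in TSA (0.12) and 8 in HMS-I1 (-0.16), and 0 passed. Tmem173, which encodes the adaptor STING of DNA sensing, stood at 52.6, 93.7 and 164 in AA and 36.1, 41.7 and 39.4 in Control (1.24, SE 0.62), and Ikbke, a kinase that activates IRF3 and IRF7, was at -0.82 (SE 0.44) in HMS-I1.

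Among 39 tested effectors outside the 9, including Mx, Oas and Ifitm genes, 32 were higher in AA (median 0.47), 27 in MTX (0.26), 28 in TSA (0.20) and 15 in HMS-I1 (-0.11), and 0 passed. Against the direction of the list, the exonuclease gene Isg20 was at -1.26 (SE 0.50) in TSA, with 918, 142 and 267 normalised counts against 713, 1018 and 665 in Control. Oasl1, of the oligoadenylate synthetase family, was at -0.84 (SE 0.46) in MTX. Of the 4 genes that attach or remove ISG15, 4 were higher in AA (median 0.60), 3 in MTX, 3 in TSA and 2 in HMS-I1, and 0 passed. Uba7, the enzyme that activates ISG15, stood at 100.3, 58.7 and 92.3 in AA and 39.3, 34.8 and 21.2 in Control (1.38, SE 0.57). Herc6, the ISG15 ligase of mice, was at 0.58 (SE 0.23) in MTX, with unadjusted p = 0.0268 and adjusted p = 1.00 (limma).

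Peptide loading and MHC class I genes, which display cell contents to T cells, were higher in 8 of 10 in AA (median 0.73), MTX (0.47) and TSA (0.46) and in 3 of 10 in HMS-I1 (-0.09), and 0 passed. The immunoproteasome gene Psmb9 stood at 41.3, 181 and 260 in MTX and 36.3, 25.2 and 46.7 in Control (1.81, SE 0.89), and Psmb8 was at 1.48 (SE 0.88) in AA. Brakes on the signal were higher in 5 of 7 in AA (median 0.44), 4 in MTX, 4 in TSA and 1 in HMS-I1, and 0 passed. Socs3, which inhibits JAK kinases, was at 1.03 (SE 0.60) in AA, and Pias1, a SUMO ligase that inhibits signalling, at -0.66 (SE 0.32) in TSA.

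Genes outside the 9 with the most similar profile were sought over the 15 libraries, by the root mean square difference of centred log2 values from the mean profile of the 9, with all libraries given equal weight. The 5 nearest were Rab32, a small GTPase of lysosome-related organelles (0.23), Il10ra, the interleukin 10 receptor chain of leukocytes (0.23), Ctsc, a lysosomal protease that activates granule enzymes of leukocytes (0.24), Cd180, a receptor of B cells and macrophages (0.25), and Trim30a, an interferon-induced member of the tripartite motif family (0.26). A gene with a flat profile would be at 0.63, and the 9 themselves lay between 0.30 for Ifit3 and 0.92 for Zbp1. Il10ra stood at 217 in AA replicate 3, 200.6 in TSA replicate 2 and 180 in MTX replicate 3, and at 57.7 to 145 in the other 12 libraries.

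Markers of leukocytes were highest in the same 3 libraries as the 9 genes. Of 26 tested genes of a list of 31 for macrophages and other leukocytes, which shares 0 genes with the interferon lists, 23 were higher in AA (median 0.65), 24 in MTX (0.44), 19 in TSA (0.41) and 14 in HMS-I1 (0.07), and 0 passed. Itgam, an integrin of macrophages and neutrophils, was at 1.24 (SE 0.57) in TSA, with 380, 202 and 104 normalised counts, so it was highest in the replicate where the 9 genes were low. Ptprc, the pan-leukocyte gene CD45, was at -1.09 (SE 0.53) in HMS-I1. In HMS-I1 the 9 genes had a median of -0.28 beside the leukocyte median of 0.07. Averaged over the 26 genes, the log2 value was highest in AA replicate 3 (8.55), TSA replicate 2 (8.34) and MTX replicate 3 (8.20), and at 6.49 to 7.78 in the other 12. The mean of the 9 genes minus that of the leukocyte genes was -0.95 to -0.31 in Control, -0.96 to -0.44 in MTX, -0.92 to -0.55 in HMS-I1, -0.68 to -0.14 in AA and -0.72 to -0.57 in TSA. All treated groups overlapped Control on this difference, which is no correction for leukocyte numbers. The summed normalised counts of the 31 genes were 15748 to 20870 in Control, 17740 to 23885 in MTX, 13933 to 20484 in HMS-I1, 19132 to 25509 in AA and 14842 to 22507 in TSA. Aif1 made up much of these sums, at 1304 to 14046. Without it they were 7687 to 11338 in Control, 8434 to 17635 in MTX, 6438 to 13221 in HMS-I1, 8148 to 21903 in AA and 5842 to 21203 in TSA. Between 0 and 3 of the 31 were at 0 in a library, the B cell gene Cd79a most often (5 libraries), and the macrophage genes Adgre1, Csf1r, Cd68 and Mrc1 in none. The part of leukocyte numbers in the interferon values was not tested.

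**Figure D4:**
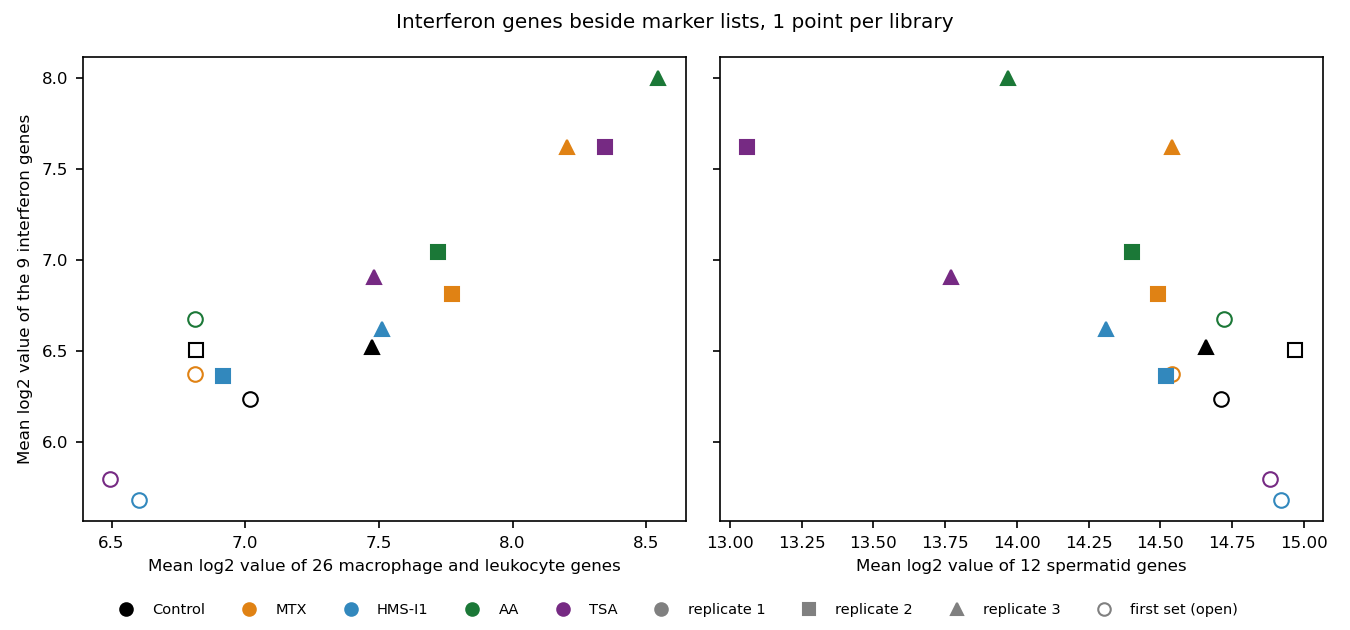
Mean log2 value of the 9 genes (vertical axis) against that of 26 leukocyte genes (left) and 12 spermatid genes (right), 1 point per library, with open points for the first set. AA replicate 3, TSA replicate 2 and MTX replicate 3 lie at the upper right of the left panel, at leukocyte values of 8.55, 8.34 and 8.20.

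Spermatid genes, from the most abundant cells of the adult testis, were lowest in libraries of TSA and AA. Their mean log2 value was 13.1 in TSA replicate 2, 13.8 in TSA replicate 3 and 14.0 in AA replicate 3, against 14.7 in Control replicate 3 and 14.5 in MTX replicate 3. Against Control, 12 of 12 were lower in TSA (median -1.03), 10 in AA (-0.35), 9 in MTX (-0.24) and 10 in HMS-I1 (-0.20), and 0 passed. Their summed normalised counts were 500690 to 936271 in Control, 458831 to 701943 in MTX, 427505 to 989143 in HMS-I1, 304967 to 731085 in AA and 229907 to 877632 in TSA. Of the somatic cells that can respond to interferon, Leydig cell genes were higher in 10 of 10 in TSA (median 0.52), 8 in AA (0.47), 6 in MTX (0.03) and 9 in HMS-I1 (0.31). Sertoli cell genes were higher in 13 of 14 in AA (0.31), 13 in TSA (0.42), 8 in MTX (0.02) and 10 in HMS-I1 (0.26). These counts mix library set and treatment. Against Control replicate 3 alone, Sertoli cell genes were higher in 4 of 14 in AA replicate 2 and 10 in AA replicate 3. In replicates 2 and 3 they were higher in 13 and 12 in TSA, 3 and 6 in MTX and 4 and 8 in HMS-I1. Leydig cell genes were higher in 6 and 9 of 10 in AA, 10 and 9 in TSA, 3 and 8 in MTX and 8 and 7 in HMS-I1. The part of these shifts in the interferon values was not tested.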

How the data were processed

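Per the labels' protocols, RNA of whole testes was extracted with Trizol, purified on columns and sequenced from Illumina libraries on a NovaSeq instrument. Per the submitters' processing notes, the authors worked on the build GRCm39 with Salmon 0.12.0, DESeq2 1.34.0 and FastQC 0.11.9, and deposited a signal table of normalised counts, scaled between libraries and not per length. Whole reads could not be recovered, and no source used here gives a strand setting. Of 36118 identifiers, 35825 matched a GENCODE M21 symbol.

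Values were analysed as log2(normalised count + 1), on which scale the fold change of low genes is understated. Genes averaging 10 or more normalised counts, 17896 in all with the 9 members among them, were fitted with limma 3.58.1 in R 4.3.3 (means of 5 groups, 10 residual degrees of freedom, variance trend), two-sided, with Benjamini-Hochberg adjustment over all genes within each comparison and a threshold of 0.05. SE is the standard error of the model. The fit was checked on simulated data. Library sets were split at the widest gap in the mean of 60 genes with Hist names. The commonest low value was taken among values under 5, rounded to 3 decimals.

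The members and lists were chosen with earlier results of these data known. The rule for named genes took all 9 members, of each pathway list the 2 members with the smallest p where none passed, and the 5 genes of most similar profile. Other genes are named as examples or markers. The values of 1 gene that the rule took are not reported here. Alternatives changed the pseudocount, filter, scaling, weights, terms and libraries.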

Additional observations from a re-analysis of the deposited data

How the results depend on the processing

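None of the 9 genes passed in any comparison with a pseudocount of 10, with no filter on the mean, with a mean of at least 50 (which drops Isg15), with the library set, the replicate block or both as terms, with quantile normalisation, or without any 1 library. Array quality weights were the exception. They passed 5 of the 9 in AA (Irf9, Ifih1, Zbp1, Ifit1 and Ifit3), 1 in TSA (Irf9), 1 in TSA against AA and 3 in the test of any difference, beside 6645, 4234, 3092 and 5640 of all genes. These weights gave AA replicate 2 a weight of 38.8, where the others had 0.230 to 2.92, and the estimation stopped before it converged.
Leaving out 1 library at a time, the count of all genes called ran from 0 to 1 in MTX, HMS-I1 and AA against Control, HMS-I1 against MTX and AA against MTX, from 0 to 992 in TSA against Control, 0 to 767 in TSA against MTX, 0 to 537 in TSA against HMS-I1, 0 to 616 in TSA against AA and 0 to 246 in the test of any difference. The larger counts came without TSA replicate 1. The median of the 9 ran from -0.05 to 0.70 in MTX, -0.44 to 0.06 in HMS-I1, 0.59 to 1.15 in AA and -0.06 to 0.83 in TSA. With the library set as a term it was 0.17 in MTX, -0.47 in HMS-I1, 0.63 in AA and 0.19 in TSA, where Control holds 2 libraries of the first set and each treatment 1.
Signs of single genes turned as follows. With the library set as a term, Irf7 was at -0.10 and Ddx58 at -0.015 in MTX, and Irf7 at -0.11, Ddx58 at -0.13 and Ifit3 at -0.22 in TSA. With the set and the replicate block together, Stat2 was at 0.012 and Ddx58 at -0.016 in MTX, Ifih1 at -0.21 and Isg15 at 0.58 in HMS-I1, and Ddx58 at -0.13 in TSA. Quantile normalisation put Isg15 at 0.025 in HMS-I1. Array weights put Stat2 at 0.015 in MTX, Irf7 at 0.003265 and Ifit3 at 0.021 in HMS-I1 and Ddx58 at -0.054 in AA. Without 1 library, the range crossed 0 in MTX for Irf7 (-0.24 to 0.83), Ifit1 (-0.10 to 0.48), Isg15 (-0.45 to 0.87), Stat2 (-0.37 to 0.19), Ddx58 (-0.012 to 0.25) and Ifit3 (-0.054 to 1.03). In HMS-I1 it did for Irf7 (-0.71 to 0.45), Ifih1 (-0.15 to 0.46), Zbp1 (-1.19 to 0.059), Isg15 (-0.72 to 0.35) and Ifit3 (-0.44 to 0.25). In AA it did for Ddx58 (-0.12 to 0.33), and in TSA for Irf7 (-0.16 to 1.23), Ifih1 (-0.056 to 0.83), Ifit1 (-0.98 to 0.15), Isg15 (-0.0445 to 0.90), Ddx58 (-0.26 to 0.31) and Ifit3 (-0.51 to 0.92).
Every group holds each replicate number, so the replicate block alone could not change a fold change or its sign. It passed 0 of the 9. Its smallest adjusted p among the 9 against Control was 0.268, in TSA (limma). Same-numbered replicates deviated together in part, with correlations of -0.58 to 0.76 over 30 pairs (median 0.46). The median was -0.33 over 60 pairs of different number, which centring within groups pushes below 0 when same-numbered pairs are positive. Replicate 1 is of the first set in every group, so pairing and library set cannot be told apart here. The main fit did not take the numbers as pairs. The causes of these changes were not tested. Low values in the first set limit Zbp1 and Isg15 most.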
